A study of Homo sapiens with 6 samples.

Results

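Metallothioneins are small cysteine-rich proteins that bind zinc and copper, and *MTF1* encodes the metal-regulatory transcription factor that senses zinc and switches their genes on. The 8 metallothionein genes *MT1E*, *MT1F*, *MT1G*, *MT1H*, *MT1M*, *MT1X*, *MT2A* and *MT3* and the regulator *MTF1* were compared between large physaliferous and small non-vacuolated cells of MUG-Chor1, a line grown from a chordoma of the sacrum and coccyx, a tumour with features of notochord. They were chosen by gene symbol and are 9 of the 18404 genes with a probe set of their own on the array. Of the 19158 probe sets with a single gene symbol 10 carried one of these symbols, 2 of them *MT2A*, and 0 probe sets were shared between one of these genes and another symbol. Per gene the probe set with the highest mean over all arrays was used.

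Each array was hybridized with amplified cDNA of 1 pool of 20 cells. There were 3 pools of large cells (pools 2, 3 and 4) and 3 pools of small cells (pools 5, 6 and 7). The methods describe 4 picked pools per phenotype, and why the data hold 3 of each is not said. All pools came from the same line in the same serum-containing medium, and were picked by morphology after trypsinization. The labels name no metal or drug that was added. As a model, the arrays represent 1 cell line. Whether pools were taken from 1 culture or several is not said in the labels or methods, and p-values therefore cover the differences among these pools alone, which may be technical. Values are log2 expression after robust multi-array averaging, and since each array received a fixed amount of cDNA they show a share of the RNA and not an amount per cell.

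In cells generally, free zinc lets MTF1 bind metal response elements in metallothionein promoters, and the newly made metallothionein binds the excess metal and so limits it. *MT2A* and the *MT1* genes are expressed in many tissues and also respond to glucocorticoids and oxidative stress, whereas *MT3* was first known from brain, where it was described as a growth inhibitory factor, and responds poorly to metals. The genes lie side by side on chromosome 16 and are similar in sequence, so a probe set named for one may also pick up RNA of another. How much this contributed to each value was not tested.

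RefSeq promoters (GRCh38.p14) were at hand for 4 of the 9 genes. The 250 bases before the start of the 3 metallothioneins among them are shown 5′ to 3′. They were searched for the letters of the metal response element through which MTF1 is known to act. Capitals mark each match to the core of the element, TGCACNC or TGCGCNC, on either strand; 0 neighbouring matches overlapped. All 3 lie on the plus strand, *MT2A* at chr16:56608334-56608583, *MT1X* at chr16:56682220-56682469 and *MT1H* at chr16:56669564-56669813.
MT2A: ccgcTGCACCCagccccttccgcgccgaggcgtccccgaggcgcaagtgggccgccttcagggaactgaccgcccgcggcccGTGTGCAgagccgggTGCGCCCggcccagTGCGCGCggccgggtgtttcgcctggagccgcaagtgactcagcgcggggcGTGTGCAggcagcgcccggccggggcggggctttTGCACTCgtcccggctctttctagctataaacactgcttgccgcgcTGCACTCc
MT1X: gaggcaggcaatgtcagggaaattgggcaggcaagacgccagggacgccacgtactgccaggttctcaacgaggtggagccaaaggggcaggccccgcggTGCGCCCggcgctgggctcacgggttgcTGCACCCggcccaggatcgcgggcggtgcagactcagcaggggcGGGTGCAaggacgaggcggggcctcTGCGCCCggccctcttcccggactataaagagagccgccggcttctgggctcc
MT1H: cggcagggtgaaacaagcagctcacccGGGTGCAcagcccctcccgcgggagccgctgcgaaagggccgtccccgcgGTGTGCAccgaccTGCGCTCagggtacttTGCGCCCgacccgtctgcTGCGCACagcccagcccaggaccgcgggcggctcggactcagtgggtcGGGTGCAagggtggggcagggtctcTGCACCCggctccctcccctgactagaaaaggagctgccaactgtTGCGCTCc
*MT2A* held 7 matches, *MT1X* 4 and *MT1H* 8. Of 35116 promoters of the same length 24.8% held at least 1 match, 0.37% at least 4, 0.0313% at least 7 and 0.0171% at least 8. *MTF1*, on chromosome 1, held 0 matches in its 250 bases. A match is a description of the letters and not evidence of binding.

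The array medians lay between 6.64 and 6.68 in large and between 6.73 and 6.76 in small pools, and single arrays correlated at 0.896 to 0.929 over all probe sets. All 9 chordoma and notochord markers, among them *TBXT*, the brachyury gene, were above log2(100), taken here as the expression floor, in 6 of 6 pools. Of 5 leukocyte markers 1 and of 4 endothelial markers 1 were above the floor in every pool (*CD68* and *KDR*), while *PTPRC*, *PECAM1*, *VWF* and *CDH5* were above it in 0 pools. Of the other leukocyte markers *CD14* was above it in 4 pools, *CD3E* in 1 and *LYZ* in 0. Of 7 fibroblast markers 4 were above it in every pool, and their mean level over the 7 was 6.91 to 7.06 in large and 7.19 to 7.50 in small pools. The fibroblast list thus ran lower in all large pools, with *DCN* below the floor throughout and *LUM* at 8.88 in small pool 7 against 5.91 to 7.22 in the other pools, and its part in the results was not tested.

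*MT2A*, *MT1E* and *MT1G* had all their large pools above their small pools, and *MT3* was lower in every large pool. The differences ran from 0.43 to 0.82 on the log2 scale for the 3 higher genes and amounted to -0.38 for *MT3*. *MT1F* and *MT1X* had higher means in large cells with overlapping pools, and *MT1H*, *MT1M* and *MTF1* lay near the floor. None of the 9 genes passed the thresholds of the study by limma, which ask for a log2 fold change beyond 1 in either direction with an adjusted p under 0.05.

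*MT2A*, which encodes the most widely expressed metallothionein, had log2 expression of 11.39, 11.12 and 11.36 in large pools 2, 3 and 4, against 10.88, 10.75 and 10.58 in small pools 5, 6 and 7. The lowest large pool lay above the highest small pool. The mean was 11.29 ± 0.14 in large and 10.74 ± 0.15 in small cells (SD, n = 3 pools each), that is 1.47-fold (95% confidence interval 1.18 to 1.82). On the log2 scale the difference was 0.55 with a standard error of 0.13 (interval 0.24 to 0.86). By limma over all genes the adjusted p was 0.32 and the unadjusted p 0.0046, which stood at rank 196 among 18404. With each pool left out in turn the unadjusted p from limma was 0.0041 to 0.018. With the filters on level and variation of the methods, which left 2062 genes, it was 0.20. The log2 fold change of *MT2A* was 0.55 there as well, since the filters changed only the genes fitted with it.
A second probe set with the symbol *MT2A*, whose site in the genome was not checked, gave a smaller difference. Its log2 expression was 9.81, 9.62 and 9.83 in large and 9.54, 9.61 and 9.53 in small pools. The groups did not overlap, but large pool 3 and small pool 6 nearly met. The log2 fold change of this probe set was 0.19 (interval -0.068 to 0.45, unadjusted p = 0.12 from limma over all probe sets), and the mean of both probe sets gave 0.37.

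*MT1E* and *MT1G*, members of the metallothionein 1 group, were the other genes whose large pools all lay above the small ones. *MT1E* had 9.82, 9.58 and 9.73 in large pools, against 9.43, 8.29 and 8.97 in small pools. The large pools were close together, whereas the small pools spread widely, with pool 6 lowest. The mean was 9.71 ± 0.12 in large and 8.90 ± 0.57 in small cells (SD, n = 3 pools each), which differed by 0.82 (interval 0.12 to 1.51, standard error 0.29, adjusted p = 0.32 from limma). Without small pool 6 the log2 fold change of *MT1E* was 0.51. The unadjusted p of *MT1E* from limma was 0.028, and it was under 0.05 in 2 of the 6 fits with 1 pool left out.
*MT1G* had 9.48, 9.25 and 9.20 in large pools, against 9.01, 8.69 and 8.94 in small pools. The pools of either phenotype were about equally spread, and the nearest pair was large pool 4 and small pool 5. The log2 fold change was 0.43 (standard error 0.13, interval 0.11 to 0.75, unadjusted p = 0.017 and adjusted p = 0.32 from limma). In 4 of the 6 fits with 1 pool left out the unadjusted p of *MT1G* was under 0.05.

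*MT1F* and *MT1X* had overlapping groups. *MT1F* had 8.29, 7.96 and 8.22 in large pools and 8.15, 7.65 and 7.59 in small pools, with small pool 5 inside the range of the large pools. Its log2 fold change was 0.36 (standard error 0.18, interval -0.089 to 0.81, unadjusted p = 0.098 from limma). *MT1X* had 9.03, 8.90 and 8.64 in large pools and 8.01, 8.67 and 9.19 in small pools. The small pools of *MT1X* thus held both the lowest and the highest value of all 6. Its log2 fold change of 0.23 (interval -0.50 to 0.97) was -0.072 without small pool 5 and 0.51 without small pool 7. For this gene the difference was smaller than the spread between small pools, 0.59 as SD.

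*MT1H* and *MT1M* lay at the expression floor (6.64). *MT1M* had 6.69, 6.47 and 6.74 in large and 6.45, 6.40 and 7.03 in small pools. *MT1H* had 6.81, 6.41 and 6.52 in large and 6.67, 6.52 and 7.08 in small pools. *MT1M* was above the floor in 2 of 3 large and 1 of 3 small pools and *MT1H* in 1 of 3 large and 2 of 3 small pools. Their log2 fold changes, 0.0071 for *MT1M* (interval -0.47 to 0.48) and -0.18 for *MT1H* (interval -0.62 to 0.27), give no size of change at this signal. *MT1H* had the most matches to the core of the response element among the promoters shown above.

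*MT3* went the other way from *MT2A*. Its log2 expression was 8.34, 7.94 and 8.22 in large pools, against 8.62, 8.51 and 8.51 in small pools. All small pools of *MT3* were close to each other, and the large pools were spread below them. The mean was 8.17 ± 0.20 in large and 8.54 ± 0.064 in small cells (SD, n = 3 pools each), a difference of -0.38 on the log2 scale (interval -0.69 to -0.061, standard error 0.13, unadjusted p = 0.026 and adjusted p = 0.32 from limma). It was under an unadjusted p of 0.05 in 2 of the 6 fits with 1 pool left out. With each array centred on its median the value was -0.29 (unadjusted p = 0.053 from limma).
The distance from *MT3* to *MT2A* within an array is not changed by such centring. The log2 expression of *MT2A* minus that of *MT3* was 3.05, 3.18 and 3.14 in large pools, against 2.26, 2.24 and 2.07 in small pools. This distance was 0.93 wider in large cells, with 3.12 ± 0.07 in large and 2.19 ± 0.10 in small cells (SD, n = 3 pools each), and the pools of both phenotypes stood well apart. The distances from *MT2A* to *MT1E*, *MT1F*, *MT1G* and *MT1X* had overlapping groups and moved by -0.26 for *MT1E*, 0.19 for *MT1F*, 0.12 for *MT1G* and 0.32 for *MT1X*. The pair of *MT2A* and *MT3* was picked after the values were seen and was not tested. Since *MT2A* was higher and *MT3* lower in every large pool, the distance between them had to separate the groups. It restates these differences and adds no support to either. With 3 pools on either side the smallest p that an exact permutation test allows, two-sided, is 0.1.

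**Figure D1:**
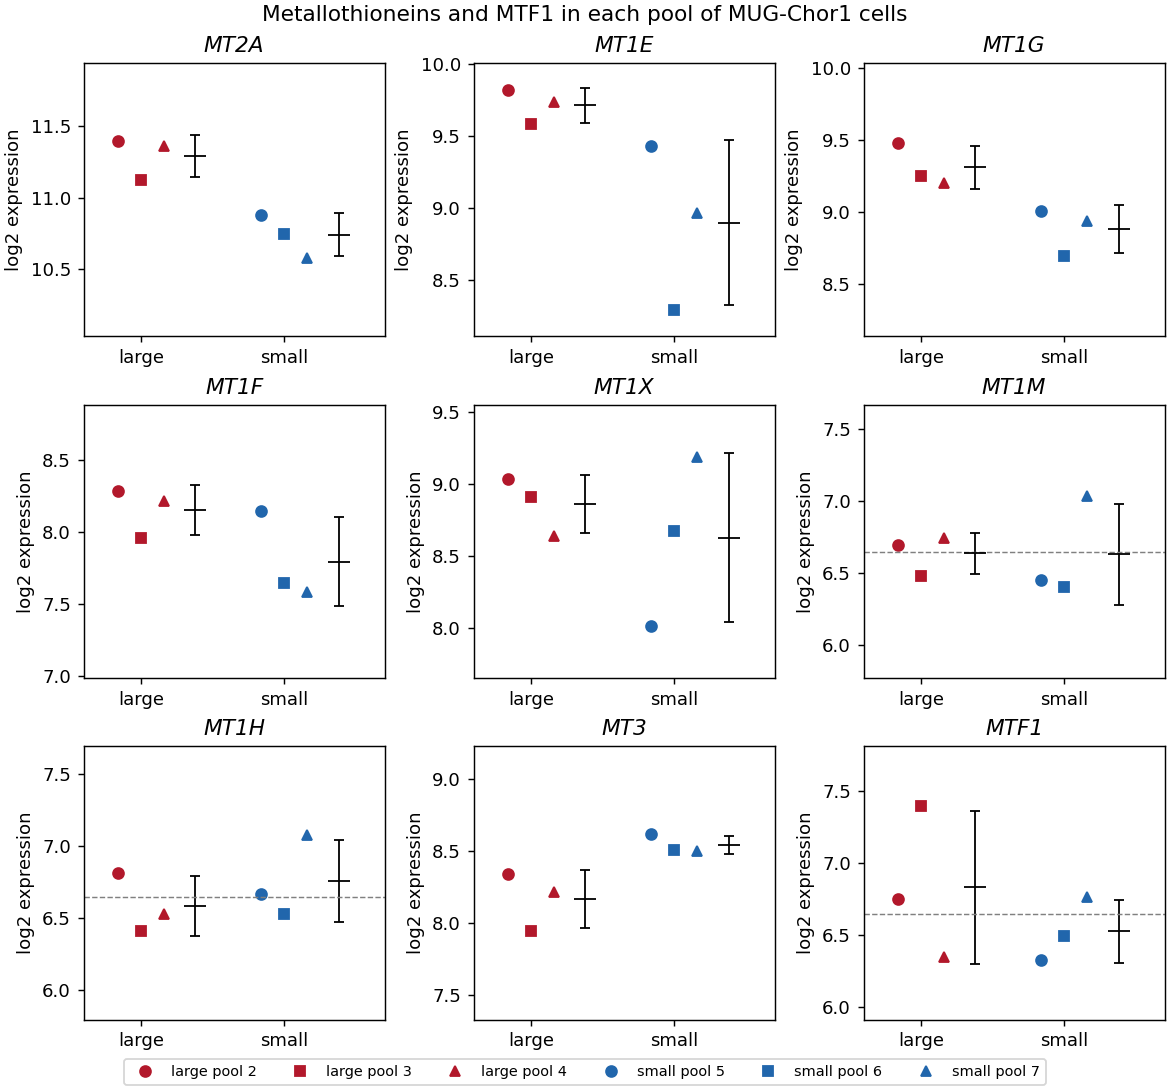
Log2 expression (vertical axis, each panel spanning the same range of log2 units but with its own centre) per pool of 20 large or 20 small MUG-Chor1 cells, 1 panel for each of the 9 genes. Points are pools, the bars beside them give mean and SD (n = 3 pools), and a dashed line marks the floor of 6.64; for *MT2A*, *MT1E* and *MT1G* the large pools lie above the small ones, for *MT3* below them, and for the others the pools overlap.

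*MTF1* was measured at 6.75, 7.40 and 6.35 in large pools, against 6.33, 6.49 and 6.76 in small pools. Large pool 3 stood above the rest, and the other large pools lay within the range of the small ones. The mean was 6.83 ± 0.53 in large and 6.53 ± 0.22 in small cells (SD, n = 3 pools each), a difference of 0.30 on the log2 scale (interval -0.38 to 0.99, standard error 0.28, unadjusted p = 0.32 from limma). Without large pool 3 it was 0.02, and without large pool 4 it was 0.55. *MTF1* was above the floor in 2 of 3 large and 1 of 3 small pools, and its difference was smaller than the SD of the large pools. Large pool 3, the highest for *MTF1*, was the lowest large pool for *MT2A*, *MT1E*, *MT1F*, *MT1H*, *MT1M* and *MT3*. For *MT1G* and *MT1X* the lowest large pool was pool 4. Large pool 3 also had the lowest array median, 6.64, and what this has to do with these values was not tested.

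Across the family 6 of the 8 metallothioneins had higher and 2 lower means in large cells, with a median log2 fold change of 0.30. Of all 18404 genes 6175 were higher and 12229 lower, with a median of -0.11. At an unadjusted p under 0.05 by limma 3 of the 9 genes were higher in large cells, where 4.33% of all genes were, and 1 was lower, where 10.5% were. The same 4 genes had groups that did not overlap. Of all genes 5.48% had all large pools above all small pools and 21.6% had them all below. By limma 0 of 18404 genes (0%) passed the adjusted threshold, while an unadjusted p under 0.05 was found for 797 genes that were higher and 1934 that were lower. This split turned to 1207 higher and 718 lower when each array was centred on its median, by which *MT2A*, *MT1E*, *MT1G* and *MT1F* were higher and *MT3* was no longer under 0.05.
Large minus small differences also moved with signal level. In the brightest of 5 equal classes of genes by mean level, which holds *MT2A*, *MT1E*, *MT1G*, *MT1F*, *MT1X* and *MT3*, the median log2 fold change was 0.08. In this class 12.7% of genes had all large pools above all small pools and 4.64% had them all below. At an unadjusted p under 0.05 by limma 9.75% of the genes of this class were higher in large cells and 2.61% lower. Within it 88.0% of genes had a lower log2 fold change than *MT2A*, 94.7% than *MT1E*, 82.1% than *MT1G* and 6.49% than *MT3*. Of the genes of this class 16.9% had a smaller residual SD between pools than *MT2A*, 17.7% than *MT3*, 19.1% than *MT1G*, 42.0% than *MT1F*, 70.6% than *MT1E* and 73.2% than *MT1X*. These shares are descriptions, and the part that signal level has in the differences was not tested.

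Which pool was highest differed between the genes. Large pool 2 had the highest value of all 6 pools for *MT2A*, *MT1E*, *MT1F* and *MT1G*, and small pool 7 for *MT1H*, *MT1M* and *MT1X*. Small pool 6 was the lowest for *MT1E*, *MT1G* and *MT1M*, small pool 7 for *MT2A* and *MT1F*, and small pool 5 for *MT1X*. Small pool 7 thus held the highest *MT1X* and the lowest *MT2A* value. Among the small pools alone, pool 5 was the highest for *MT2A*, *MT1E*, *MT1F*, *MT1G* and *MT3*, and pool 7 for *MT1X*, *MT1H* and *MT1M*.

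Along the cluster on chromosome 16 (GRCh38.p14) the left ends of the genes are *MT3* at 56589528, *MT2A* at 56608584, *MT1E* at 56625781, *MT1M* at 56632659, *MT1F* at 56657959, *MT1G* at 56666730, *MT1H* at 56669814 and *MT1X* at 56682470. The higher genes were not all neighbours, since *MT1M* and the pseudogenes *MT1JP* and *MT1DP* between *MT1E* and *MT1F* had log2 fold changes of 0.0071 for *MT1M*, 0.069 for *MT1JP* and 0.038 for *MT1DP*. Of a list of 10 further family genes and pseudogenes, which did not hold *MT1HL1* of chromosome 1, 6 had a probe set of their own, 3 with higher and 3 with lower means in large cells and 0 with an unadjusted p under 0.05 by limma. *MT4*, expressed in stratified epithelium, had 7.60, 7.57 and 7.44 in large and 7.34, 7.97 and 7.69 in small pools, which overlapped. *MT1B* had 7.95, 7.81 and 7.84 in large and 8.16, 7.97 and 8.16 in small pools, which did not overlap, with a log2 fold change of -0.23 (unadjusted p = 0.068 from limma). The pseudogene *MT1IP*, above the floor in 0 of 3 large and 2 of 3 small pools, had 6.56, 6.59 and 6.51 in large and 6.69, 6.61 and 6.75 in small pools, again without overlap (log2 fold change -0.13). *MT1HL1* also had all its large pools below its small pools (log2 fold change -0.26). In the class of *MT1IP* by mean level 32.85% of genes had all large pools below all small pools. The share was 25.18% in the class of *MT1HL1* and 4.64% in that of *MT1B*, the brightest. A probe set shared by the pseudogene *MT1L* and the unrelated gene *NUTF2*, counted apart, had 9.24, 9.18 and 8.97 in large pools, against 8.30, 8.78 and 8.70 in small pools. All its large pools lay above the small ones (log2 fold change 0.54, interval 0.12 to 0.95), and the arrays do not tell which of its 2 symbols this belongs to.

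**Figure D2:**
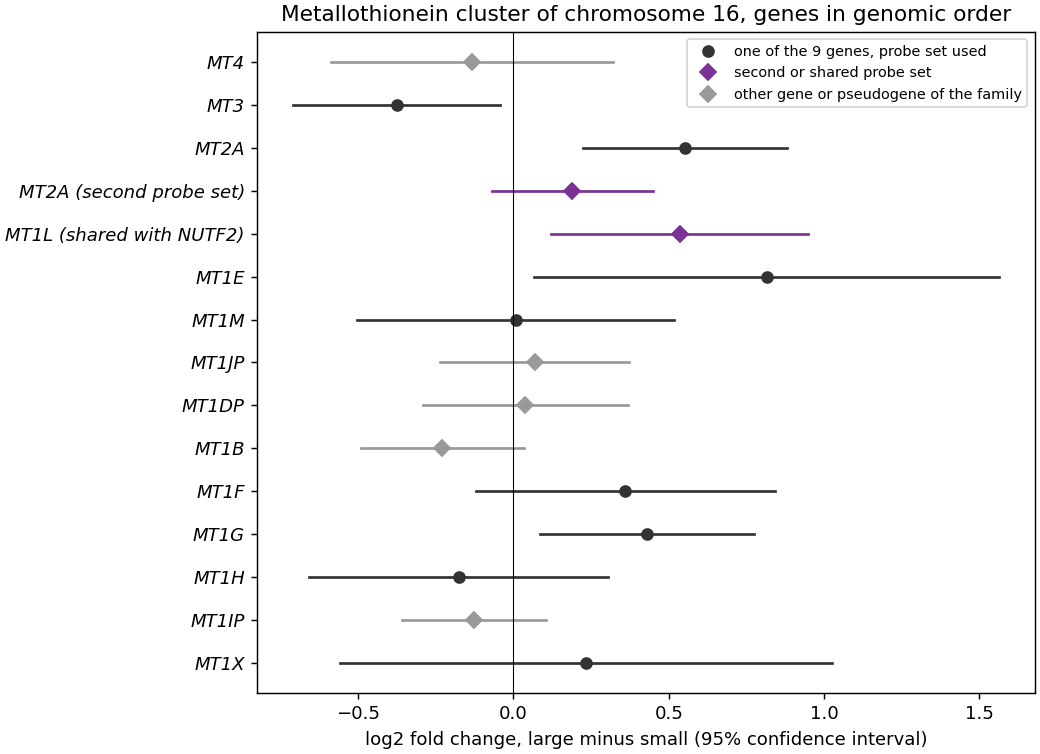
Log2 fold change of large minus small cells (horizontal axis) with 95% confidence intervals from limma over all 32321 probe sets. Rows are probe sets with the symbol of a metallothionein gene on chromosome 16, in the order of the genes from top to bottom. The sites of the probe sets themselves were not checked. The probe sets used for *MT2A*, *MT1E* and *MT1G* and the probe set shared by *MT1L* and *NUTF2* lie to the right of 0 and *MT3* to the left, with intervals that leave out 0, while the intervals of the others, the second *MT2A* probe set among them, include it.

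The rest of metal handling was read from lists of MTF1 partners and targets and of zinc, copper, iron, redox, heat shock and glucocorticoid genes. With the 6 further family genes given above these lists held 88 genes. By limma 0 of the 88 passed over all genes, while 18 had an unadjusted p under 0.05. Of these 9 were higher in large cells, where 4.33% of all genes were, and 9 lower, where 10.5% of all genes were. Of 24 zinc transporters of the *SLC30* exporter and *SLC39* importer families 4 were higher and 4 were lower at this level. The 4 with the smallest p were *SLC30A4*, which loads zinc into vesicles, *SLC39A11*, *SLC39A4*, an importer of the cell surface, and *SLC30A7*, which moves zinc into the Golgi, and their log2 fold changes were 2.36 for *SLC30A4*, 0.79 for *SLC39A11*, -0.38 for *SLC39A4* and 1.16 for *SLC30A7*. *SLC30A4* and *SLC39A11* were above the floor in 0 of 3 small pools, so these sizes are uncertain.
*SLC30A1*, the zinc exporter of the plasma membrane and a known MTF1 target, had 7.04, 7.20 and 7.34 in large and 7.12, 6.90 and 6.92 in small pools, which overlapped (log2 fold change 0.21, unadjusted p = 0.13 from limma). It is named as the best known target outside the metallothioneins and not by its p. Among the 10 MTF1 partners and targets outside the family 1 gene was higher and 1 gene was lower at this level. The higher one was *GCLC*, the catalytic subunit of the first enzyme of glutathione synthesis, with 7.01, 6.88 and 6.61 in large pools, against 6.41, 5.76 and 5.98 in small pools (log2 fold change 0.78). *GCLC* was above the floor in 2 of 3 large and 0 of 3 small pools. The lower one, the zinc exporter *SLC30A2*, was above it in 0 of 3 large and 2 of 3 small pools (log2 fold change -0.38).
Of 11 copper genes 2 were higher and 2 lower. *CUTC*, a copper-binding protein, had a log2 fold change of 0.92, and the copper pump *ATP7A* had 1.14, with 8.29, 7.96 and 7.64 in large and 7.65, 6.74 and 6.07 in small pools, of which large pool 4 and small pool 5 overlapped. *CCS*, the copper chaperone of superoxide dismutase, had -0.57 and the related pump *ATP7B*, below the floor in all pools, -0.30. Of 7 iron genes 1 was higher, the ferritin light chain *FTL*, with 10.07, 10.27 and 9.99 in large pools, against 9.71, 9.17 and 9.75 in small pools (log2 fold change 0.57).
Of 18 glutathione and oxidative stress genes 2 were higher, *GCLC* and the thioredoxin reductase *TXNRD1* (log2 fold change 0.24), and 0 lower. Of 8 heat shock genes 2 were lower, the heat shock factor *HSF1* (-0.32) and the small chaperone *HSPB1* (-0.26). *HSF1*, *HSPB1*, *CCS* and *SLC39A4* lie in the class by mean level next below the brightest. In that class 11.6% of genes were lower at an unadjusted p under 0.05 by limma. Of 8 glucocorticoid-responsive genes 1 was lower, *PER1*, a clock gene (-0.29), which was above the floor in 0 of 3 large and 3 of 3 small pools. For this last list the count was 0 after quantile normalization, after centring, and without large pool 2, large pool 3, small pool 5 or small pool 6. With 1 pool left out they ran from 5 (without small pool 5) to 9 for the zinc transporters, from 2 (without small pool 6) to 5 for copper, from 0 (without large pool 3) to 2 (without large pool 4 or small pool 5) for iron, from 1 (without small pool 5) to 4 (without small pool 7) for glutathione and oxidative stress, and from 0 to 3 (without large pool 4) for the glucocorticoid list. They ran from 1 (without small pool 5) to 3 (without large pool 3) for MTF1 partners and targets, and the heat shock count was 1 without large pool 2, large pool 3, small pool 5 or small pool 6. The medians of these lists ran from -0.13 for the zinc transporters to 0.11 for iron, beside 0.30 for the metallothioneins and -0.11 for all genes.

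**Figure D3:**
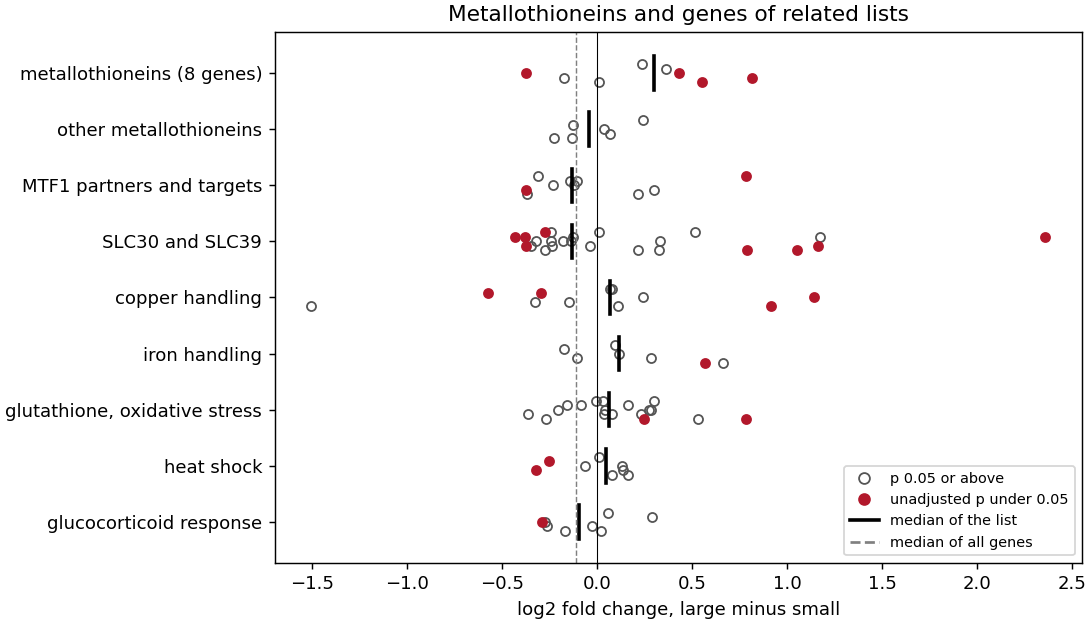
Log2 fold change of large minus small cells (horizontal axis) for the 8 metallothioneins and the genes of each related list. Filled points had an unadjusted p under 0.05 by limma, thick lines are list medians and the dashed line is the median of all genes (-0.11); the metallothionein median is 0.30 and the other list medians lie between -0.13 and 0.11.

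For likeness of pattern the profile of each gene over the 6 pools was centred on its own mean and set against that of *MT2A*, the metallothionein with the highest mean over all arrays, and of *MTF1*, among 7990 genes above the floor in all pools. The genes nearest to *MT2A* were *RPL7L1* (root mean square difference 0.057 on the log2 scale), *KIAA0232* (0.059) and *ANKIB1* (0.067). *RPL7L1*, for example, had 10.06, 9.92 and 10.15 in large and 9.64, 9.62 and 9.37 in small pools. None of the nearest 3 was a metallothionein. Nearest to *MTF1* were *INTS15* (0.091), *CNDP2* (0.12) and *CDV3* (0.12), which shared its high value in large pool 3. With 6 pools and this many genes such likeness is a description and carries no test.

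**Figure D4:**
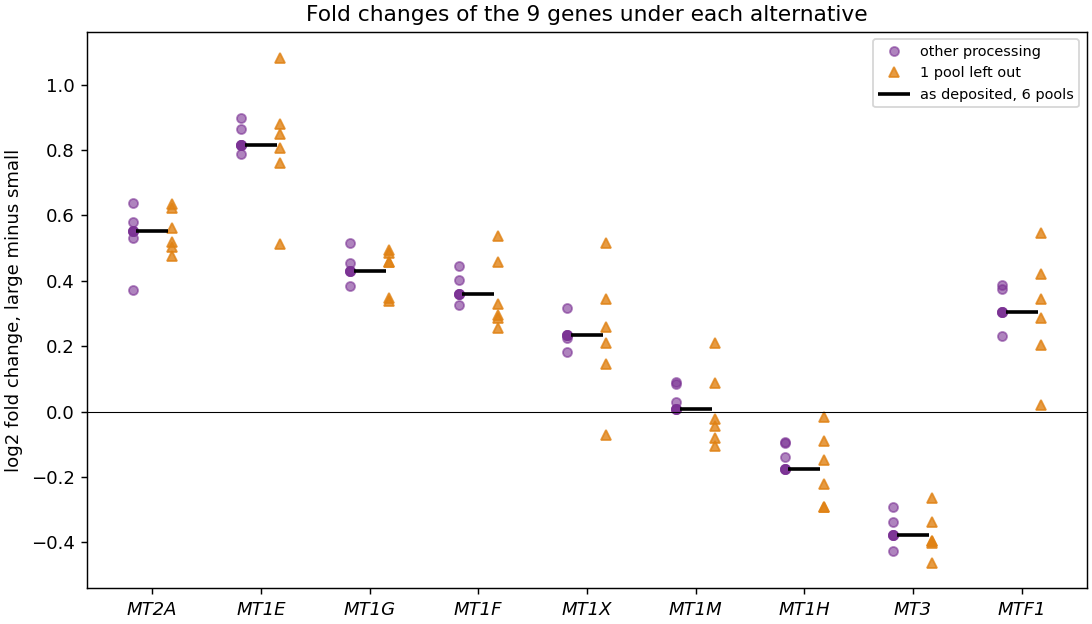
Log2 fold change of large minus small cells (vertical axis) for the 9 genes as deposited with 6 pools (lines), under other processing (circles) and with 1 pool left out (triangles). *MT2A*, *MT1E*, *MT1G* and *MT1F* stay above 0 and *MT3* and *MT1H* below it in every setting shown, *MT1X* and *MT1M* cross 0, and *MTF1* runs from 0.02 to 0.55.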

How the data were processed

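Log2 expression values, 1 column per array, were deposited by the authors, who made them by the robust multi-array average, in which arrays are background-corrected and quantile-normalized and the probes of a set are summarized by median polish. The affy package is named in the methods and Affymetrix Expression Console in the submitters' notes, and neither gives the chip definition file. Pools were grouped by source name, and 0 columns were left unused. Precision is limited by the number of pools.

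Analysis was done in R 4.3.3 with limma 3.58.1. Large minus small was fitted without covariates over 18404 genes, for each the brightest single-symbol probe set, with Benjamini-Hochberg adjustment over all of them. The methods' filters on level and variation, for which the paper gives no limits, were tried as alternatives with limits set here (log2(100) in 25% of arrays, interquartile range above 0.5), as were further scalings, the probe set choice, variance models and leaving out each pool. The fit was tested on simulated data with independent values and no shift between arrays. It therefore does not cover the difference in array medians seen here. The genes and lists were chosen with earlier results of these data known. Of each list the genes at an unadjusted p under 0.05, at most the 4 with the smallest p, are named, and exceptions are stated. Promoter sequences and gene positions are from RefSeq (GRCh38.p14).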

Additional observations from a re-analysis of the deposited data

How the results depend on the processing

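The 9 genes gave 119 log2 fold changes under the alternatives, of which 114 kept their direction and 0 passed the thresholds by limma. The 5 that turned were those of *MT1M* without large pool 2 (-0.022), large pool 4 (-0.045), small pool 5 (-0.082) and small pool 6 (-0.11) and of *MT1X* without small pool 5 (-0.072); the cause was not tested. With 1 pool left out the values ran from -0.11 to 0.21 for *MT1M* and from -0.072 to 0.51 for *MT1X*. Of the 9 genes 4 were at an unadjusted p under 0.05 by limma, where 14.84% of all genes were. With 1 pool left out 2 to 4 of the 9 were, where 10.02% to 12.77% of all genes were. The number without overlap was 4, and 4 to 5 with 1 pool left out. Groups of fewer pools separate more easily, and the share of all genes without overlap was not counted under the alternatives. With the methods' filters 2 of the 9 genes (*MT2A* and *MT1E*) were left among 2062 genes, so fewer were tested, and over all genes an unadjusted p under 0.05 was found for 229 higher and 34 lower ones. Of the 2 genes 0 had an unadjusted p under 0.05 by limma, where 12.75% of the 2062 genes had. Both had groups without overlap. A gap between the groups helps a gene through a filter on variation over all 6 pools, so this adds no support. Of 17 related genes 6 had an unadjusted p under 0.05 by limma (18 of 88 without the filters, and 12 to 24 with 1 pool left out). Over the 2062 genes 2 passed, *SNORD59B* and *ZNF814*, named because the count is small. With the level filter alone, 661 of 11694 genes were higher and 1096 lower at that level. The balance of all genes at an unadjusted p under 0.05 by limma turned with the scaling, from 797 higher and 1934 lower as deposited to 1207 higher and 718 lower once the array medians were set equal. A second quantile normalization gave 834 higher and 1086 lower. The median log2 fold change of all genes was -0.11 as deposited, -0.069 after quantile normalization and -0.026 with equal medians. Of the 9 genes 3 were higher and 1 lower as deposited and after quantile normalization, whereas after centring 4 were higher, *MT1F* among them, and 0 lower. With an intensity trend and robust variance 3 were higher and 0 lower. *MT1M*, *MT1H* and *MTF1* lay near the floor, which is a limit set here and not a measured background, and their values are uncertain. No paired analysis was possible because the pool numbers of large and small cells share no number.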

Other observations

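Outside chromosome 16 the family had probe sets of its own for *MT1HL1*, a metallothionein gene on chromosome 1, and *MT1P3*, a pseudogene on chromosome 20. *MT1HL1* had a log2 expression of 7.16, 7.10 and 6.90 in large pools, against 7.21, 7.44 and 7.31 in small pools, which did not overlap (log2 fold change -0.26, interval -0.56 to 0.04 by limma over all probe sets). *MT1P3* had 7.90, 8.08 and 8.17 in large and 7.97, 7.60 and 7.86 in small pools, which overlapped (log2 fold change 0.24).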
